A study of Mus musculus with 26 samples.

Results

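The Tet enzymes were impaired in 2 ways in the mouse embryonic stem cells (ESCs) described here, and the RNA regions carrying 5-hydroxymethylcytosine (5hmC) peaks in each state were set side by side. TKO ESCs have the genotype Tet1-Tet2-Tet3-KO, so that all Tet genes are disrupted, and were profiled in 3 libraries. Tet2deltaRBD-KI ESCs carry a tagged Tet2 without its RNA-binding domain at the endogenous locus, with no change to Tet1 or Tet3 named in the labels, and were profiled in 2 libraries. The tag is a Flag, HA and Twin-Strep fusion at the C terminus, inserted with CRISPR-Cas9. How many clones were sequenced is not given in the sources used here. ESCs were grown on gelatin with LIF, without any drug treatment named in the labels. The groups that served as reference were WT ESC (3 libraries), Tet2-KI ESC, which carry the same tag on a Tet2 that keeps its domain (2 libraries), and WT embryoid bodies (WT EB, 3 libraries), which are differentiating aggregates grown for 4 days without LIF. RNA was fragmented, precipitated with an anti-5hmC antibody and sequenced (hMeRIP-Seq), and each library is available as a list of peaks of 200 bp. TKO ESC and Tet2deltaRBD-KI ESC libraries come from different experiments, so a difference between them cannot be told apart from a difference between the experiments. The study describes its hMeRIP-Seq replicates as independent experiments, whereas the sample labels give only replicate numbers.

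Peaks of the 5 libraries that overlapped by at least 1 bp were merged into 10551 regions. A region was called shared when it had a peak in 2 or more TKO ESC libraries and in both Tet2deltaRBD-KI libraries, Tet2deltaRBD-KI only when it had a peak in both Tet2deltaRBD-KI libraries and in none of TKO ESC, and TKO only when it had a peak in 2 or more TKO ESC libraries and in none of Tet2deltaRBD-KI. There were 400 shared regions, 3.79% of all regions. The Tet2deltaRBD-KI only class held 728 regions (6.9%) and the TKO only class held 997 (9.45%). These 2125 regions are the members described below. Of all regions, 3837 had a peak in only 1 Tet2deltaRBD-KI library and 3194 in only 1 TKO ESC library, with none in the other group. Each class needs a peak in at least 2 libraries, so values given for all regions rest largely on regions outside every class. Since the classes were defined by presence in these libraries, the counts are a description and were not tested. A missing peak says that no peak passed the q-value threshold of 0.05 in that library, not that 5hmC was absent, and the read depth behind the lists is unknown.

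Tet proteins are dioxygenases that oxidise 5-methylcytosine to 5hmC, in DNA and also in RNA. Tet1 and Tet2 are the main family members in pluripotent cells, and Tet3 is best known from the oocyte and zygote and from neural cells. The catalytic domain lies at the C terminus of each protein. Removing an RNA-binding part from Tet2 is meant to separate its contact with transcripts from its catalysis, whereas disrupting all family members removes the known 5hmC-forming activity. In these terms the shared regions are peaks still called in both states, and the other classes are peaks called in only a single state.

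Sequences of summits from each class are given first because the classes differed in base composition. All are mm9 and read 5' to 3' on the transcript strand. Runs of at least 8 purines are in capitals for the shared and TKO only intervals. Among regions in coding genes, ranked by their lowest TKO ESC fold enrichment over the libraries with a peak, Yes1 and Tra2a held the highest shared regions and Smc2, Smc4 and Smc6 the highest TKO only regions. The Tra2a interval has no such run, nor has that of Magi1, which held rank 3 among the shared regions and is not printed.
Yes1, shared, intron, chr5:32936183-32936382, + strand: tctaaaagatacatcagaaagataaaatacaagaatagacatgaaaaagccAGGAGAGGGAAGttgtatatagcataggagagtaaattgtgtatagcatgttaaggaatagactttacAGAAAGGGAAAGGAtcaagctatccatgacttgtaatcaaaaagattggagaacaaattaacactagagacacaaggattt
Tra2a, shared, intron, chr6:49202663-49202862, - strand: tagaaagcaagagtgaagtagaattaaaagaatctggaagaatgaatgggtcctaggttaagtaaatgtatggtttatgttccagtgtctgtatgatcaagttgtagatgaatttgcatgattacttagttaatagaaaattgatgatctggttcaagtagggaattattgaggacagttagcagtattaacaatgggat
Smc2, TKO only, coding sequence, chr4:52482699-52482898, + strand: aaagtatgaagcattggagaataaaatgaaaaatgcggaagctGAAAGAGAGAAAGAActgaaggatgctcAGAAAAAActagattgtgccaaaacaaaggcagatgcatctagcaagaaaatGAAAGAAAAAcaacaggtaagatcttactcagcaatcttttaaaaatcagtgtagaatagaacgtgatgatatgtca
Smc4, TKO only, coding sequence, chr3:68826105-68826304, + strand: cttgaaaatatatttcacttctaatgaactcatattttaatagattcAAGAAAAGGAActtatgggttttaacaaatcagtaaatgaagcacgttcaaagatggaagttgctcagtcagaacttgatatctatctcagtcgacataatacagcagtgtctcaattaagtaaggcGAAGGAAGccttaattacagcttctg
Smc6, TKO only, intron, chr12:11307270-11307469, + strand: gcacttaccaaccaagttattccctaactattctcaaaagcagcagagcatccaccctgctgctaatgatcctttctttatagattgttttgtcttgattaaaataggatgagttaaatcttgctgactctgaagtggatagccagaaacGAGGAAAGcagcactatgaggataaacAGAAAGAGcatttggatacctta

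For the Tet2deltaRBD-KI only class, runs of at least 8 G or C bases are in capitals. Cdc42bpa ranked first by the lowest WT ESC fold enrichment among regions in coding genes found in all WT ESC libraries. Cspp1, Slc39a10 and Chpf held the first regions in genome order without any WT ESC or Tet2-KI peak, a set printed after the base composition had been seen. Cdc42bpa and Cspp1 have no run of that length. Epha4 and Adat1, which ranked next after Cdc42bpa, are not printed and have none either (48.5% and 40.5% GC).
Cdc42bpa, intron, WT ESC peaks, chr1:181891656-181891855, + strand: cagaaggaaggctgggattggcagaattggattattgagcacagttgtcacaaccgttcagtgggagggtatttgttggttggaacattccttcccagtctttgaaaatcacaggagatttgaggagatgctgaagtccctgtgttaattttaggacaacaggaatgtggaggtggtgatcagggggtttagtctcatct
Cspp1, intron, no WT ESC or Tet2-KI peak, chr1:10090743-10090942, + strand: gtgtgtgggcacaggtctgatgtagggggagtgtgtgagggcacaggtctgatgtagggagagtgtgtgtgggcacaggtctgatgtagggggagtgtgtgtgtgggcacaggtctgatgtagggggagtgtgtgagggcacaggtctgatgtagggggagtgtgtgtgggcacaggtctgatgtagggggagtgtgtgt
Slc39a10, intron, no WT ESC or Tet2-KI peak, chr1:46909796-46909995, - strand: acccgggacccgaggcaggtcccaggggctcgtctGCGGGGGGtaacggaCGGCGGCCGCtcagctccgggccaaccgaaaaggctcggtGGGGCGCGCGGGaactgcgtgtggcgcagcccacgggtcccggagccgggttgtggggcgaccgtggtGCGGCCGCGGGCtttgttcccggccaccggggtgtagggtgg
Chpf, coding sequence, no WT ESC or Tet2-KI peak, chr1:75475419-75475618, - strand: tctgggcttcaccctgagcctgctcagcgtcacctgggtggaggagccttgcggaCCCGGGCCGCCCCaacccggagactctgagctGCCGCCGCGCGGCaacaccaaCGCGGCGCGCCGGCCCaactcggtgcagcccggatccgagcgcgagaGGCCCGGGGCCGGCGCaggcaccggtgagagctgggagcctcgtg

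Within a single gene the exclusive classes could lie apart, as 30 bases at the summits in Rtn4, Atp11b and Cdk13 show (chosen after their values were seen). G and C made up 70% of the Rtn4 5' UTR bases and 36.7% of the intronic ones. In Atp11b the shares were 70% and 43.3%, and in Cdk13 they were 76.7% and 43.3%. Capitals again mark runs of at least 8 G or C bases for the Tet2deltaRBD-KI only summits, and runs of at least 8 purines for the TKO only summits.
Rtn4, Tet2deltaRBD-KI only, 5' UTR, chr11:29593102-29593131, + strand: tgccagtcctgcccaacccccacaaccgcc
Rtn4, TKO only, intron, chr11:29621957-29621986, + strand: atattcatcataggttgcaggactacatga
Atp11b, Tet2deltaRBD-KI only, 5' UTR, chr3:35653197-35653226, + strand: ttaagcccgaggggctcgcctgctccggtc
Atp11b, TKO only, coding sequence, chr3:35712954-35712983, + strand: catttcttttAGAAAGGActgcggacactg
Cdk13, Tet2deltaRBD-KI only, 5' UTR, chr13:17896490-17896519, - strand: caCCCGCGCCGCactctGCGGCGGGCtcta
Cdk13, TKO only, intron, chr13:17870942-17870971, - strand: actGAAGAAAGGtagagttgacaggacttg

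The peak lists differed in length and in composition before any class was formed. TKO ESC replicates 1 to 3 listed 964, 4323 and 3262 peaks, and Tet2deltaRBD-KI replicates 1 and 2 listed 4639 and 3318. TKO ESC replicate 1 stood apart from its group with the shortest list and a mean GC content of 51.9%, against 42.3% and 44.5% in replicates 2 and 3. Its description begins with 1608, and those of replicates 2 and 3 begin with 1703. Tet2deltaRBD-KI replicate 2 stood apart from replicate 1, with a mean GC content of 60.8% against 51.2%. It also had 16.0% of its peaks in 5' UTRs, against 5.80% in replicate 1. The part of these library differences in the results below was not tested, and values recomputed without single libraries are given beside several of the results. Peak lists do not measure expression, so the knockout and the cell type could not be checked by transcript level.

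Replicates overlapped only in part. Of the 1372 regions with a peak in both Tet2deltaRBD-KI libraries, 53.1% had no TKO ESC peak, 17.8% (244 regions) had a peak in 1 TKO ESC library and 29.2% were shared. Of the 1934 regions with a peak in 2 or more TKO ESC libraries, 51.6% had no Tet2deltaRBD-KI peak, 27.8% (537 regions) had a peak in 1 library and 20.7% were shared. The 244 and 537 regions lie just outside the class borders and belong to no class. Just inside, 213 shared regions had a peak in exactly 2 TKO ESC libraries and 187 in all 3, and 949 TKO only regions had a peak in exactly 2 and 48 in all 3. TKO ESC replicate 1 had a peak in 256 of the 400 shared regions but in 150 of the 997 TKO only regions. Replicates 2 and 3 had peaks in 922 and 970 of the TKO only regions, so that class rested mostly on those libraries. When replicate 1 was left out and both remaining TKO ESC libraries were required, the counts were 331 shared, 795 Tet2deltaRBD-KI only and 899 TKO only regions. Without replicate 2 or 3, a peak in replicate 1 was required, which left 231 and 211 shared and 123 and 76 TKO only regions. Without Tet2deltaRBD-KI replicate 1, a peak in replicate 2 alone was required, with 441 shared, 2407 Tet2deltaRBD-KI only and 1497 TKO only regions, and without replicate 2 the counts were 897, 2915 and 1040.

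Overlap between libraries was measured by the Jaccard index, the share of the regions of 2 libraries that both hold. It was 0.301 for TKO ESC replicates 2 and 3 and 0.216 for the Tet2deltaRBD-KI pair. TKO ESC replicate 1 overlapped its own group with 0.0916 and 0.140. It had a peak in 909 regions, against 4170 and 3189 for replicates 2 and 3, which limits how high its index with any longer list can be. Pairs from different groups lay between 0.0830 and 0.168. The mean was 0.187 within groups and 0.117 between groups, a difference of 0.07 (one-sided exact permutation over 10 relabellings of the libraries, p = 0.1, the smallest these 5 libraries can give, adjusted p = 0.4 over 9 tests). Ranges within and between groups overlapped, because both pairs with TKO ESC replicate 1 fell among the between-group values. The difference was 0.134 without TKO ESC replicate 1, 0.0402 without TKO ESC replicate 3 and 0.0346 without Tet2deltaRBD-KI replicate 2.

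By the position of the summit, introns held the largest part of each class, and the 5' UTR share differed between the exclusive classes. When any overlap with an exon counted as exonic, the intronic share of regions in coding genes fell from 67.0% to 40.6% for TKO only, from 51.2% to 41.6% for Tet2deltaRBD-KI only and from 61.3% to 51.7% for shared regions, so that exonic regions outnumbered intronic ones in both exclusive classes. Of the Tet2deltaRBD-KI only regions, 126 of 728 had their summit in a 5' UTR, or 17.3% (95% Clopper-Pearson interval 14.6 to 20.3, here and below covering counting error only). Of the TKO only regions, 3 of 997 did, or 0.301% (0.0621 to 0.877). The shared class lay between with 13 of 400, or 3.25% (1.74 to 5.49), and all 10551 regions had 6.48%. Coding sequence held 28.2% of shared, 21.8% of Tet2deltaRBD-KI only and 26.1% of TKO only regions, against 20.3% of all. Introns held 55.5%, 46.0% and 58.1% in the same order, against 56.4%. Among regions in coding genes, the intronic share of the Tet2deltaRBD-KI only class was the lowest of the 3 at 51.2%, but it was the highest without Tet2deltaRBD-KI replicate 2, at 68.7% against 63.4% for shared and 66.5% for TKO only regions. Intergenic regions made up 6% of shared, 7.14% of Tet2deltaRBD-KI only and 10.9% of TKO only regions, against 11.1% of all. The 3' UTR held between 2.21% and 4.67% of each class, against 3.45% of all. When Tet2deltaRBD-KI replicate 2 was left out and a peak in replicate 1 alone was required, the 5' UTR share of the Tet2deltaRBD-KI only class was 7.68%, and when replicate 1 was left out it was 19.4%. These settings change both the library and the presence rule, and the 2 changes cannot be told apart. The shared 5' UTR share was 1.45% without Tet2deltaRBD-KI replicate 2 and 2.11% without TKO ESC replicate 1. That of the TKO only class was 0.865% without Tet2deltaRBD-KI replicate 2, and 0% and 1.32% without TKO ESC replicates 2 and 3.

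**Figure D1:**
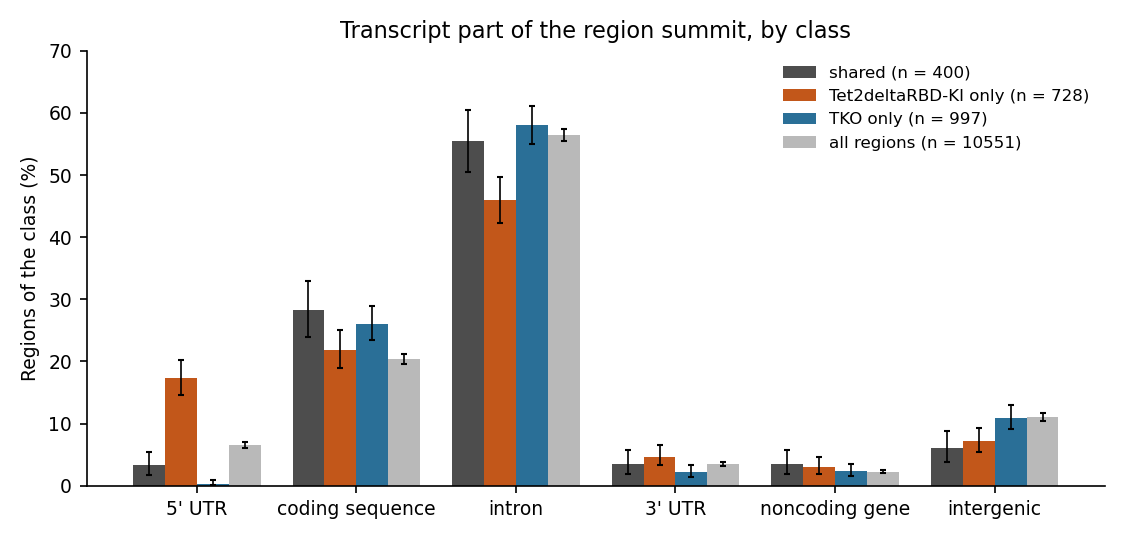
Share of the regions of each class (vertical axis, percent) by the transcript part of the summit, for shared, Tet2deltaRBD-KI only, TKO only and all 10551 regions, with 95% Clopper-Pearson intervals as error bars. The 5' UTR bar stands at 17.3% for Tet2deltaRBD-KI only regions and at 0.301% for TKO only regions, while introns are the tallest bar in every class.

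The position within introns also differed between the classes. Of the intronic TKO only summits, 38.7% (224 of 579) lay within 100 bp of an exon, against 15.3% of the shared and 17% of the Tet2deltaRBD-KI only summits and 24.8% of all intronic summits. The first intron held 55.8% (187 of 335) of the intronic Tet2deltaRBD-KI only summits, 32.9% of the shared and 21.8% of the TKO only summits, against 37.0% of all. Within 500 bp of the start of a coding transcript lay 43.7% (318 of 727) of the Tet2deltaRBD-KI only regions, 8.31% of the shared and 3.42% of the TKO only regions, against 18.2% of all. The median distance to the nearest start was 1077 bp for Tet2deltaRBD-KI only, 12021 bp for shared and 19470 bp for TKO only regions. Without Tet2deltaRBD-KI replicate 2, the share near a start was 20.7% in the Tet2deltaRBD-KI only class and the share near an exon was 24% in the shared class. Without replicate 1 of that group, the share near an exon in the Tet2deltaRBD-KI only class was 27.4%. The share near a start was 4.57% for shared regions without TKO ESC replicate 1, and 7.32% and 9.21% for TKO only regions without replicates 2 and 3.

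**Figure D2:**
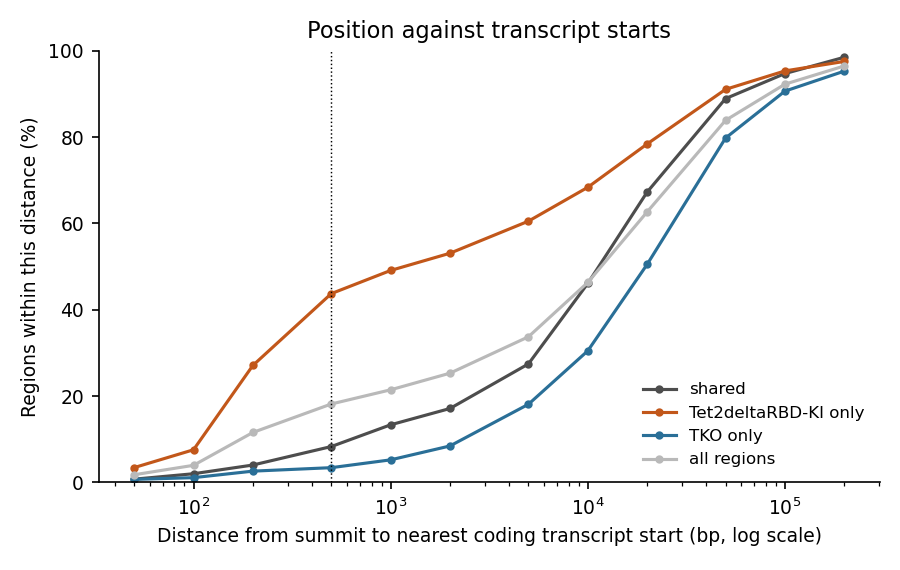
Cumulative share of regions (percent) against the distance from the summit to the nearest coding transcript start (bp, log axis), for each class and for all regions, with a dotted line at 500 bp. At that line the Tet2deltaRBD-KI only curve has reached 43.7% (20.7% without Tet2deltaRBD-KI replicate 2, not drawn) and the TKO only curve 3.42%.

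GC content followed the same order. The median GC of the 200 bp around the summit was 66% for Tet2deltaRBD-KI only, 46.5% for shared and 40% for TKO only regions, and 47% for all. At least 55% GC was found in 62.9% of Tet2deltaRBD-KI only, 15.2% of shared and 3.71% of TKO only regions, and less than 45% GC in 12.5%, 40.8% and 71.8%. The order was also seen outside the 5' UTRs. In coding sequence the median was 71% for Tet2deltaRBD-KI only and 39.8% for TKO only regions, against 51.5% for all, and in introns it was 52% and 39.5%, against 45%. Among regions with at least 55% GC, 27.3% (125 of 458) of Tet2deltaRBD-KI only, 19.7% (12 of 61) of shared and 5.41% (2 of 37) of TKO only summits lay in 5' UTRs, and 67.5%, 42.6% and 32.4% lay within 500 bp of a start. The interval of the TKO only 5' UTR share in that band, 0.661 to 18.2, overlapped that of the shared class, 10.6 to 31.8, and lay below that of the Tet2deltaRBD-KI only class, 23.3 to 31.6. With replicate 2 of Tet2deltaRBD-KI left out, the median GC of the Tet2deltaRBD-KI only class was 51%. With TKO ESC replicate 2 left out, that of the TKO only class was 47%.

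**Figure D3:**
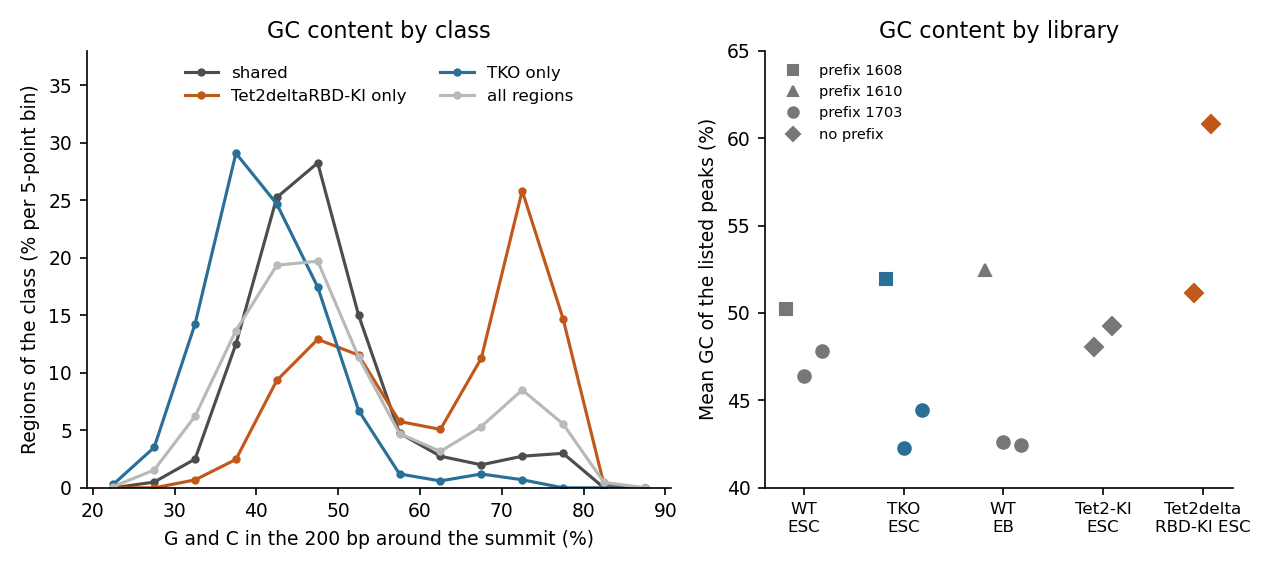
Left, distribution of the GC content of the 200 bp around the summit (horizontal axis, percent) in each class, as the percent of regions per bin of 5 points. Right, mean GC content of the peaks of each library by group, with marker shapes for the number that begins the library's description. The Tet2deltaRBD-KI only curve peaks to the right of all regions and the TKO only curve to the left, and the Tet2deltaRBD-KI libraries stand at 51.2% and 60.8%.

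At the level of libraries no difference between the groups could be called. The mean GC content of the peaks was 51.9%, 42.3% and 44.5% in TKO ESC replicates 1 to 3 and 51.2% and 60.8% in Tet2deltaRBD-KI replicates 1 and 2, so the groups overlapped. It averaged 46.2% ± 5.06 (SD, n = 3) and 56.0% ± 6.84 (SD, n = 2), a difference of 9.79 points (exact permutation p = 0.4, adjusted p = 0.4). It was 4.95 points without Tet2deltaRBD-KI replicate 2 and 14.6 points without replicate 1. The 5' UTR share was 6.43%, 1.27% and 1.23% in TKO ESC and 5.80% and 16.0% in Tet2deltaRBD-KI, again with an overlap, for a difference of 7.92 points (exact permutation p = 0.4). Without Tet2deltaRBD-KI replicate 2 this difference was 2.82 points, and without replicate 1 it was 13 points. Of the peaks in coding genes, the intronic part was 49.7%, 69.4% and 70.1% in TKO ESC and 69.1% and 49.5% in Tet2deltaRBD-KI, so each group held a high and a low library. Its mean difference, Tet2deltaRBD-KI minus TKO ESC, was -3.80 points (exact permutation p = 0.4), and it changed sign without Tet2deltaRBD-KI replicate 2, to 5.97, or when any overlap with an exon counted as exonic, to 2.40. Peak number, intergenic share, tandem repeat share and pyrimidine content gave the same exact permutation p of 0.4. With 3 libraries against 2, a two-sided p cannot fall below 0.2. Sign and size are therefore values of these libraries, and the classes describe regions, which are not replicates of a genotype.

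In TKO ESC, peaks in shared regions had higher fold enrichment than peaks in TKO only regions in each library, which 3 libraries are too few to call. Shared regions also had to be called in more libraries, and a call depends on enrichment, so the class rule itself favours this direction. The test below cannot separate the difference from the rule. Fold enrichment is the peak caller's ratio of precipitated to input signal at the summit, on a linear scale, and Tet2deltaRBD-KI lists do not give it. In TKO ESC replicates 1 to 3 the median of the peaks in shared regions was 6.50, 9.70 and 7.79, against 5.98, 8.11 and 6.94 in TKO only regions. On the log2 scale the shared peaks were higher by 0.12, 0.26 and 0.17, a mean of 0.18 ± 0.07 (SD, n = 3), higher in 3 of 3 libraries (two-sided exact sign-flip permutation p = 0.25, the smallest possible, adjusted p = 0.4). The 362 shared and 864 TKO only regions in coding genes were ranked by the lowest TKO ESC value over the libraries with a peak. The 10 highest shared regions lay in introns except for a coding-sequence region of the histone deacetylase gene Hdac2. In all but Cdh4 TKO ESC replicate 1 had no peak, although it had a peak in 256 of the 400 shared regions.

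The first was an intronic region of Yes1, a Src-family tyrosine kinase (chr5:32935875-32936437), with 29.6 and 25.7 in TKO ESC replicates 2 and 3 and 12.6 and 14.0 in WT ESC replicates 2 and 3. Tra2a, a splicing regulator (chr6:49202650-49202893), had 45.6 and 23.7 in TKO ESC replicates 2 and 3, and 3.74, 14.9 and 17.7 in WT ESC. Both had a peak in both Tet2-KI libraries and in EB replicates 2 and 3. Cdh4, which encodes a cadherin and is among the genes the study names (chr2:179240712-179240937), was the ranked region with a peak in every TKO ESC library, at 20.7, 38.9 and 25.5, and had 39.7, 9.47 and 20.5 in WT ESC but no peak in EB. Its TKO ESC and WT ESC values overlapped. The region of Smarcc1, a core subunit of the BAF chromatin remodeller (chr9:110106727-110106969), lay 4 bp from an exon and had 29.2 and 19.2 in TKO ESC replicates 2 and 3, and 5.35, 19.4 and 11.9 in WT ESC. Klf12, a zinc finger repressor (chr14:100360887-100361285), had the lowest values of the 10, at 21.5 and 16.7, and was found in 1 WT ESC and 1 Tet2-KI library. The other members of this group were Magi1, Strn3, Utrn, Cobl and Hdac2. All were ranked on their TKO ESC values, so the order of TKO ESC over WT ESC in them is a description.

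**Figure D4:**
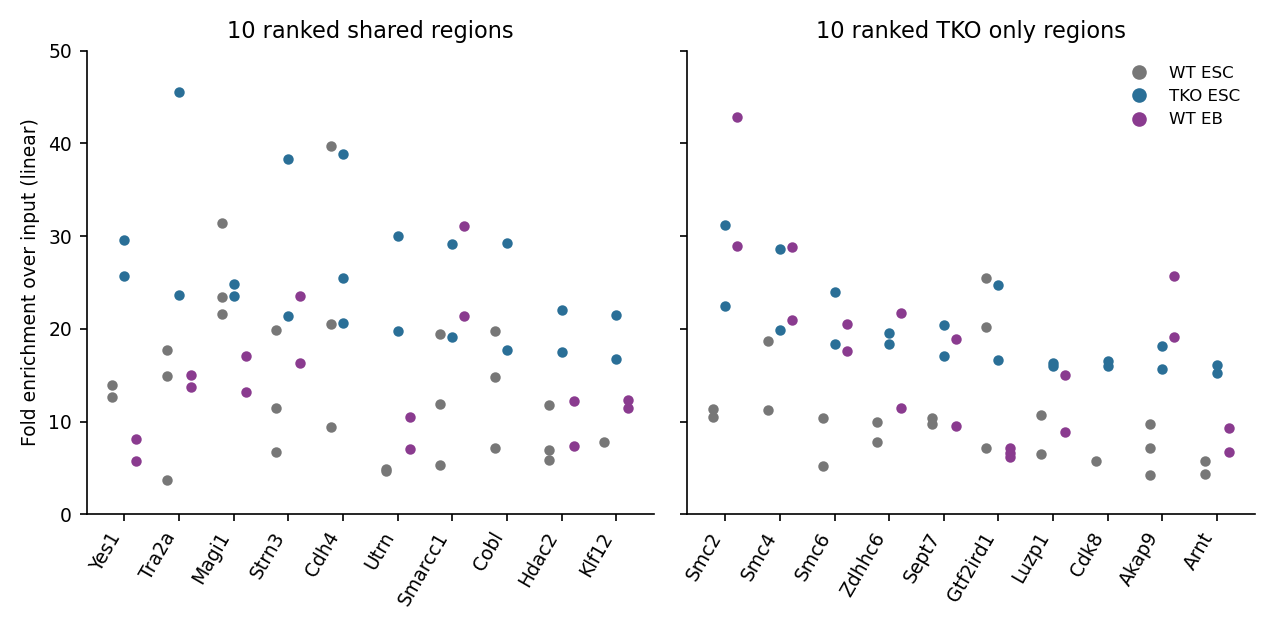
Fold enrichment over input (linear axis) of the 10 highest ranked shared regions (left) and TKO only regions (right) in coding genes in each library with a peak, with WT ESC, TKO ESC and WT EB in separate colours and each point a library. The ranked shared regions reach 45.6 in TKO ESC (Tra2a) and the ranked TKO only regions 31.2 (Smc2), and most of the latter also have WT ESC and WT EB points.

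Genes could hold several shared regions: 314 coding genes had at least 1 (6.93% of the 4533 genes with a region), 38 had at least 2 and 10 at least 3. Smc1a, a cohesin subunit on the X chromosome, had the most, with 5, of which 3 lay in coding sequence. A region of that gene (chrX:148475783-148476003) had 21.5, 26.8 and 13 in TKO ESC and 8.55 and 18.1 in WT ESC replicates 2 and 3. Nasp, a histone chaperone, and Ncl, which encodes nucleolin, had 4 each. In Ncl, the values were low, from 2.57 to 8.37 in TKO ESC over the shared regions, and 2 further regions of the gene were TKO only. Calm2, a calmodulin gene, had 3, among them an intronic region (chr17:87836825-87837735) with 16.4, 46.4 and 38.1 in TKO ESC and 23.3, 35.4 and 61.3 in WT ESC, so the ranges overlapped. Cacna1a, a calcium channel subunit, had 3 shared intronic regions and an intronic Tet2deltaRBD-KI only region.

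The Tet2deltaRBD-KI only class split by where it was seen elsewhere. Its 8 regions in coding genes ranked highest by their lowest WT ESC value had peaks in all WT ESC libraries and none in TKO ESC, so for them a peak was seen in WT ESC, was seen in Tet2deltaRBD-KI and was not called in TKO ESC. Cdc42bpa, a kinase acting downstream of Cdc42 (chr1:181891654-181891855), led with 15.1, 10.7 and 13.2 in WT ESC. Its summit lay 513 bp from a transcript start. The Epha4 region, in an ephrin receptor gene (chr1:77464759-77464967), had 10.2, 14.7 and 14.0, and that of the tRNA deaminase gene Adat1 (chr8:114508713-114508924) had 11.4, 9.15 and 13.8. Rab37, a small GTPase gene (chr11:114958910-114959198), was the member of this group with peaks in 2 EB libraries, at 15.3 and 10.7. The others were Dstyk, Pibf1, Tmem201 and Pkp4. The GC content of these 8 regions ran from 40.5% to 49%, below the class median of 66%, and all were intronic except that of Tmem201, in a 3' UTR.

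The first 6 Tet2deltaRBD-KI only regions in genome order without any WT ESC or Tet2-KI peak looked different. After Cspp1, which encodes a centrosome and spindle protein, came Slc39a10, a zinc transporter gene, with its summit 1007 bp from a start, and Chpf, a chondroitin synthesis gene, at 327 bp in coding sequence. Sox13, a transcription factor gene (chr1:135320733-135320959), Lamc1, a laminin subunit gene (chr1:155179668-155179869), and a region where 2810025M15Rik and Rasal2 overlap had summits in 5' UTRs, at 121, 148 and 96 bp from a start. The GC content was 58.5% in Cspp1 and between 74.5% and 78% in the others. Of all 153 such regions, 42 lay in 5' UTRs (27.5%), and their median GC was 72%. No value of enrichment is available for them, since the Tet2deltaRBD-KI lists hold positions only.

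Among coding genes, 619 had at least 1 Tet2deltaRBD-KI only region (13.7% of 4533), and 35 had 2 or more. TKO only regions lay in 600 genes (13.2%), of which 164 had 2 or more and 56 had 3 or more. In all, 199 genes had shared regions alone, 521 had Tet2deltaRBD-KI only regions alone and 469 had TKO only regions alone.

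The TKO only class was led by genes of the structural maintenance of chromosomes family, the ATPases of cohesin, condensin and the Smc5-Smc6 complex. The coding-sequence region of the condensin gene Smc2 (chr4:52482699-52482910) had 31.2 and 22.5 in TKO ESC replicates 2 and 3, against 10.5 and 11.3 in WT ESC replicates 2 and 3 and 28.9 and 42.9 in EB replicates 2 and 3. In Smc4, also of condensin (chr3:68826105-68826333), the values were 19.9 and 28.6 in TKO ESC, 18.7 and 11.3 in WT ESC and 20.9 and 28.8 in EB, for the same replicates. Smc6 (chr12:11307251-11307469) had 24 and 18.4 in TKO ESC, 10.4 and 5.17 in WT ESC and 17.6 and 20.5 in EB. In each of these, the TKO ESC values lay above those of WT ESC, and no peak was listed in replicate 1 of TKO ESC, of WT ESC or of EB. Enrichment was calculated against a separate input for each library, and these regions were ranked on their TKO ESC values, so the order of TKO ESC over WT ESC is a description. Smc2 and Smc4 had peaks in both Tet2-KI libraries although in neither Tet2deltaRBD-KI library, and Smc6 had 1.

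In the whole family, 6 genes (Smc1a, Smc2, Smc3, Smc4, Smc5 and Smc6) held 20 TKO only regions. Of these, 7 lay in coding sequence and 13 in introns, and 12 of the intronic summits were within 100 bp of an exon. Their median GC was 34.2%. Peaks were present in 2 or more EB libraries for 15, in 2 or more WT ESC libraries for 9 and in both Tet2-KI libraries for 3, and TKO ESC replicate 1 had a peak in 1. In the whole TKO only class, 36.6% of regions had peaks in 2 or more EB libraries, and 41.6% in 2 or more WT ESC libraries. No Tet2deltaRBD-KI only region lay in an Smc gene, and 6 shared regions lay in Smc1a and Smc3, with a median GC of 45.5%. The 20 regions were examined together because of the ranking, so the family is a description and not a tested set.

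The other ranked TKO only regions lay in Zdhhc6, a palmitoyltransferase gene, Sept7, a septin, Gtf2ird1, a transcription factor gene, Luzp1, Cdk8, the kinase of the Mediator complex, Akap9, a centrosomal scaffold, and Arnt, a bHLH-PAS transcription factor. Gtf2ird1 (chr5:134888437-134888653) had peaks in every WT ESC and EB library, with 24.7 and 16.6 in TKO ESC replicates 2 and 3, 7.19, 25.4 and 20.2 in WT ESC and 6.19, 6.63 and 7.13 in EB. Its TKO ESC and WT ESC values overlapped. In Cdk8 (chr5:147092543-147092801), 16.5 and 16.0 in TKO ESC stood beside a single WT ESC value of 5.71 and no EB peak. None of the 10 had a peak in TKO ESC replicate 1.

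Both exclusive classes occurred in 64 of the 4533 coding genes with a region, and 14 of the 64 also held a shared region. Tet2deltaRBD-KI only regions lay in 13.7% and TKO only regions in 13.2% of the 4533 genes. Whether 64 differs from the overlap that these shares alone would give was not tested. In 31 of the 64 a Tet2deltaRBD-KI only region lay within 500 bp of a transcript start, in 2 a TKO only region did, and in 29 only the Tet2deltaRBD-KI only region did. The Tet2deltaRBD-KI only regions had the higher GC content in 54 of 64 genes, with medians of 58.9% and 40%. Smarcc1 had 1 Tet2deltaRBD-KI only region in coding sequence 123 bp from a start (74.5% GC, with 4.32, 5.03 and 3.09 in WT ESC), with 1 shared and 4 TKO only regions downstream. Jarid2, an accessory subunit of PRC2, had 3 Tet2deltaRBD-KI only regions in an intron between 2201 and 2799 bp from a start, at 65% to 75.5% GC, and a TKO only region further downstream (chr13:44973357-44973569) with 8.76 and 11.9 in TKO ESC and 8.09 and 10.1 in WT ESC replicates 2 and 3. Rbbp6 had a Tet2deltaRBD-KI only region 337 bp from a start with 4.11, 4.37 and 3.77 in WT ESC, and 3 TKO only regions in coding sequence close together. Sept7, Rtn4, which encodes a reticulon, Atp11b, a phospholipid flippase, and the kinase Cdk13 had the same arrangement, a GC-rich region near the start in the Tet2deltaRBD-KI only class and regions of lower GC content in the rest of the gene in the TKO only class. Strbp, with 40% GC in its Tet2deltaRBD-KI only region and 43.1% on average in its TKO only regions, did not.

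The libraries that the rule did not use separated the classes further. Of the shared regions, 91.8% (88.6 to 94.3) had a peak in 2 or more WT ESC libraries and 93.2% in both Tet2-KI libraries, and 1 of 400 had neither a WT ESC nor a Tet2-KI peak. A peak in all 13 libraries was found for 57 shared regions. Of the Tet2deltaRBD-KI only regions, 18.7% (15.9 to 21.7) had a peak in 2 or more WT ESC libraries and 42.7% in both Tet2-KI libraries, against 24.5% and 22.4% of all regions. Of the TKO only regions, 41.6% (38.5 to 44.8) had a peak in 2 or more WT ESC libraries and 199 of 997 (17.5% to 22.6%) in both Tet2-KI libraries. The WT ESC share of the Tet2deltaRBD-KI only class was 8.52% without Tet2deltaRBD-KI replicate 1. The Tet2-KI share of the TKO only class was 35% without that library and 32.9% without TKO ESC replicate 3, above the 22.4% of all regions, whereas its interval with all libraries included that value. Without any WT ESC and Tet2-KI peak were 153 Tet2deltaRBD-KI only regions (21.0%) and 168 TKO only regions (16.9%), against 36.7% of all. All regions include those seen in only 1 of the 5 libraries, which the class rules leave out, so the comparisons with all regions are a description. These shares were not tested.

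Single libraries behaved unequally. The TKO only regions had a peak in 22.3% of cases in WT ESC replicate 1, but in 56.2% and 49.4% in replicates 2 and 3, and in EB in 1.91%, 40.6% and 57.7%. Over all regions the shares were 20.5%, 31.1% and 28.8% in the WT ESC and 3.03%, 13.9% and 21.7% in the EB libraries, so those of replicate 1 were near the background. WT ESC and EB replicates 2 and 3 carry the same number, 1703, at the start of their descriptions as TKO ESC replicates 2 and 3, and replicate 1 of these groups carries 1608 or 1610. Its part in these shares was not tested. The Tet2deltaRBD-KI only regions had peaks in WT ESC replicates 1 to 3 in 23.4%, 22.9% and 23.2% of cases, below the background in replicates 2 and 3. In EB they had 2.75%, 2.20% and 3.71%, near the background in replicate 1 and below it in replicates 2 and 3, while the shared regions were found in EB in 26.5%, 63.2% and 62.5%. Tet2-KI replicates 1 and 2 held 96.8% and 95.2% of the shared, 56.9% and 58.8% of the Tet2deltaRBD-KI only and 59.3% and 25.1% of the TKO only regions, against 45% and 29.7% of all, and their lists differed in length with 10383 and 5781 peaks. In the 5' UTRs alone, 11.9% of the 126 Tet2deltaRBD-KI only regions had a peak in 2 or more WT ESC libraries, 24.6% in both Tet2-KI libraries and 33.3% in none of these groups. Of all 684 regions in 5' UTRs, these shares were 12.1%, 11.7% and 58.5%.

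**Figure D5:**
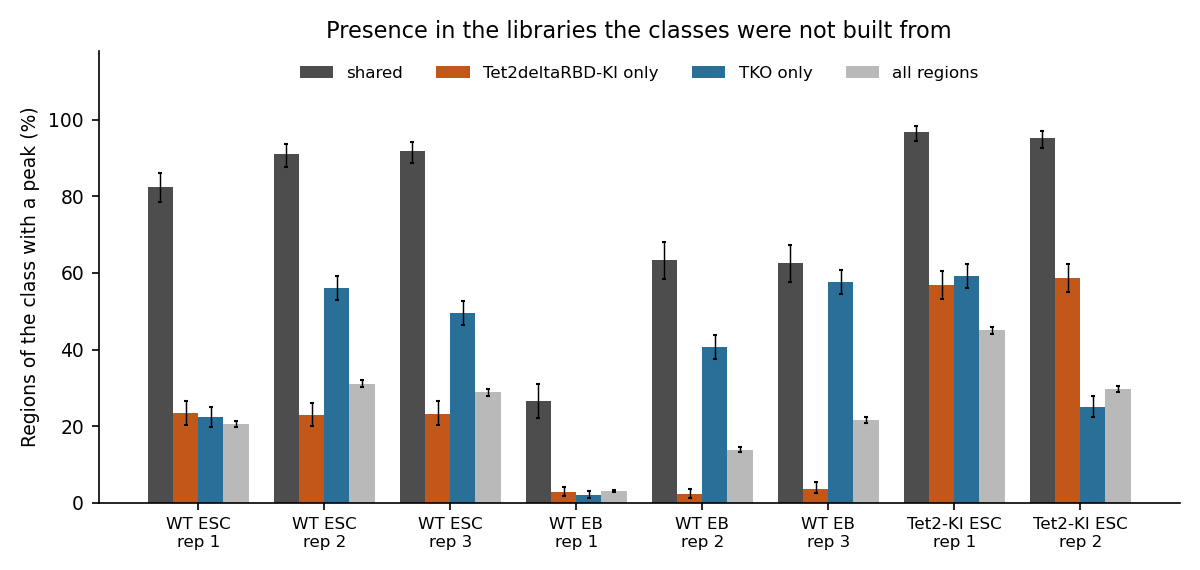
Share of the regions of each class (percent) with a peak in each of the 8 libraries not used to define the classes, with 95% Clopper-Pearson intervals as error bars. Shared regions stand between 82.5% and 96.8% in the WT ESC and Tet2-KI libraries, and TKO only regions range from 1.91% in EB replicate 1 to 59.3% in Tet2-KI replicate 1.

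The transcript-strand sequences of the classes differed in short motifs, counted in the 200 bp around the summit on the transcript strand only, for the 360 shared, 647 Tet2deltaRBD-KI only and 853 TKO only regions whose strand the annotation gives. GAAGAA occurred in 30% of shared, 31.9% of TKO only and 6.80% of Tet2deltaRBD-KI only regions, against 19% of all. GAGAGA occurred in 24.2%, 22.2% and 12.1%, against 19%. GCGGCG occurred in 27.0% of the Tet2deltaRBD-KI only regions, but in 5% of shared and 1.64% of TKO only regions, against 10.8%. Without Tet2deltaRBD-KI replicate 2, GCGGCG occurred in 11.7%, GAAGAA in 12.3% and GAGAGA in 18.4% of the Tet2deltaRBD-KI only regions. For GCGGCG, the shared share was 2.47% without that library and 2.36% without TKO ESC replicate 1, and the TKO only share ran from 0.755% to 7.02% over single left-out libraries. GAGAGA reached 38.6% of TKO only regions without TKO ESC replicate 3. TGTGTG was found in 20.3% of shared, 14.2% of Tet2deltaRBD-KI only and 10.1% of TKO only regions, against 13.4% of all. TCTCTC, an instance of the UC-rich sequence that the study looks at, occurred in 1.67% of shared, 3.25% of Tet2deltaRBD-KI only and 3.99% of TKO only regions, against 4.93% of all. The interval of the TKO only share, 2.78 to 5.53, included the value of all regions, and that of the Tet2deltaRBD-KI only share reached 4.92. A match says only that these letters are in the window. Mean pyrimidine content was 36.6% in shared, 40.7% in TKO only and 43.8% in Tet2deltaRBD-KI only regions, and 45.3% (163 of 360) of the shared regions with a transcript strand had at most 35% pyrimidines against 19.7% of all. Tandem repeats, with units of 1 to 4 bases, were present in 4%, 6.52% and 3.43% of the shared, TKO only and Tet2deltaRBD-KI only regions, below the 7.47% of all.

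Gene lists were read by the number of members with a region of each class, beside the 6.93%, 13.7% and 13.2% of all genes with a region. Of the cohesin and condensin list, 13 genes had a region, and 8 held a TKO only region, 2 a shared and 1 a Tet2deltaRBD-KI only region, the last being Ctcf, which encodes the insulator protein. The TKO only genes beside the Smc family were Nipbl, a cohesin loader, and Wapal, a cohesin release factor. Of 32 ribosomal protein genes with a region, 9 held a Tet2deltaRBD-KI only region, none a shared and 1 (Rps24) a TKO only region. All 9 lay within 500 bp of a transcript start, with a GC content from 65.5% to 78.5%, none had peaks in 2 WT ESC libraries and 4 had peaks in both Tet2-KI libraries. By summit, 7 of the 9 were intronic, 2 of these within 100 bp of an exon, 1 lay in coding sequence and 1 in a 5' UTR. Ribosomal protein genes have many processed pseudogenes, and how reads shared with them were counted is not given in the sources used here. The part of such reads in these regions was not tested.

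RNA-binding proteins were found in every class. Of 21 hnRNP genes with a region, 6 held a shared, 4 a Tet2deltaRBD-KI only and 7 a TKO only region. Hnrnpa2b1, a splicing regulator and m6A reader, held 2 shared regions in the gene body and a Tet2deltaRBD-KI only region at 72% GC. Of 29 RNA helicase genes, 6 held a shared region, among them Ddx3x, with 2 in coding sequence found in every TKO ESC library, 2 a Tet2deltaRBD-KI only and 4 a TKO only region. Translation initiation factors (27 genes) held regions of the 3 classes in 4, 6 and 7 genes. Eif3a, a scaffold subunit of eIF3, had 3 shared and 5 TKO only regions, and Eif5a, a translation elongation factor, a Tet2deltaRBD-KI only region in its 5' UTR. SR protein genes (11) held 2, 2 and 2, and paraspeckle and FET protein genes (7) held 2, 2 and 3, with Sfpq carrying 3 shared regions. An intronic Sfpq region (chr4:126704521-126704744) had 10.3, 5.78 and 6.99 in TKO ESC and 14.6, 8.75 and 7.88 in WT ESC, and its ranges overlapped.

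Chromatin and methylation genes occurred in each class. Of 7 PRC2 genes with a region, 2 held a Tet2deltaRBD-KI only region (Jarid2 and Suz12) and 3 a TKO only region (Jarid2, Suz12 and Mtf2). In Suz12, the Tet2deltaRBD-KI only region lay in the 5' UTR (72.5% GC) and the TKO only region in an intron (31.5% GC). BAF genes (9) held 3 shared, 3 Tet2deltaRBD-KI only and 1 TKO only gene, NuRD genes (8) held 1, 0 and 1, lysine demethylases (11) held 2, 3 and 0, and the Paf1 complex and elongation list (7) held 2, 0 and 2. RNA methylation genes (10) held 1, 2 and 2, among them the m6A reader Ythdc1 with a shared and a TKO only region. The p53 and DNA damage list (12) held 1, 2 and 3, with a Tet2deltaRBD-KI only region in an intron of Trp53 and 4 TKO only regions in Rad50, an Smc-like repair ATPase. Zinc finger genes (83) held 3, 10 and 10. Of 7 core pluripotency genes with a region, Klf5 alone held a class region, a Tet2deltaRBD-KI only one in its 5' UTR at 77.5% GC.

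The Tet genes and the 5-methylcytosine enzyme list (7 genes) held 1 shared and 2 Tet2deltaRBD-KI only regions. An intronic region of Tet1 (chr10:62319644-62319887) was shared, with 4.69, 7.27 and 5.00 in TKO ESC and 2.77, 5.29 and 5.25 in WT ESC. The values of these groups overlapped. Tet2 had no TKO ESC peak and an intronic Tet2deltaRBD-KI only region (chr3:133175948-133176229), with 5.54 in 1 WT ESC library. Tet3 had no region of any class. Which part of each Tet gene was disrupted is not given in the peak lists, so an intronic peak does not check the knockout. Dnmt1, the maintenance DNA methyltransferase, held the other Tet2deltaRBD-KI only region. Of the genes that the study names, 8 had a region, and Cdh4, Mdc1, Paf1, Sfpq and Smarcc1 held shared regions. Jarid2 and Smarcc1 held regions of both exclusive classes. Eed and Dab1, which the study also names, had 2 and 8 regions but none of any class. These genes were chosen by the study on these samples, so their count is no independent evidence. Mdc1, a DNA damage mediator (chr17:35987542-35987770), had 9.56, 12.9 and 30.4 in TKO ESC and 35.8, 24.6 and 11.9 in WT ESC, and Paf1 (chr7:29183772-29184003) had 6.76, 10.1 and 4.99 in TKO ESC and 6.04, 8.34 and 4.56 in WT ESC. In both, the ranges overlapped.

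Markers of pluripotent, feeder, primitive endoderm, mesoderm and neural cells gave no class region in any list. Of 10 pluripotent markers, 5 had a region in the 5 libraries, and of the other lists 3 of 8 feeder, 4 of 7 primitive endoderm, 0 of 6 mesoderm and 1 of 5 neural markers did. Whether other cell types contribute to the classes was not tested.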

How the data were processed

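Precipitated and input RNA was sequenced for 13 library pairs, of which the peak lists of the precipitated libraries were analysed. The 13 input libraries were not analysed here. Per the study's methods, the authors checked reads with FastQC, discarded those of low complexity and those that Bowtie2 mapped to rRNA or tRNA, cut adapters with Trimmomatic, aligned with STAR to mm9 and RefSeq transcripts, and called peaks with MACS2 for each precipitated library against its own input at a q-value under 0.05. No versions are given in the sources used here. The deposited lists hold peaks of 200 bp with positions, and in 9 lists the fold enrichment, a linear ratio of precipitated over input signal. The 4 knock-in lists hold positions only. Read depth is unknown.

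From these lists, overlapping peaks (1 bp or more) of the 5 TKO ESC and Tet2deltaRBD-KI libraries were merged and classified by presence. Summits were assigned to transcript parts with the mm9 GENCODE annotation, and 99.7% of peaks lay on chromosomes of the reference. The strand was that of the annotated gene. GC content, motifs and tandem repeats (at least 18 nt) were read from the mm9 sequence. Groups came from the sample labels. Library means were compared by exact permutation over the 5 libraries, with Benjamini-Hochberg adjustment over 9 tests. Shares carry 95% Clopper-Pearson intervals. Python 3.11.15, pandas 2.3.3, scipy 1.17.1 and pysam 0.24.0 were used, and the scripts were tested on simulated data. The members, gene lists and alternatives were chosen with earlier results of these data known. Named regions, all in coding genes, were the 10 shared and 10 TKO only regions with the highest lowest TKO ESC fold enrichment, the 8 Tet2deltaRBD-KI only regions so ranked in WT ESC, the first 6 in genome order without WT ESC or Tet2-KI peaks, the 5 genes with most shared regions, 8 genes with both exclusive classes, Tet genes, genes the study names and up to 3 members of each list. Rps24, Wapal, Smc3, Smc5, Trp53, Rad50, Ddx3x, Eif3a and Eif5a were singled out after their values were seen. Alternatives covered overlap, transcript part rules, presence rules, merging, chromosomes and leaving out each library.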

Additional observations from a re-analysis of the deposited data

How the results depend on the processing

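Over 41 results, 217 of 287 alternative values stayed on the same side or within the spread, 68 moved and 2 reversed. The intronic difference (Tet2deltaRBD-KI minus TKO ESC, -3.80) reversed to 2.40 when any exon overlap counted as exonic, and without single libraries it ran from -13.6 to 5.97. No other library difference changed sign, but without single libraries that of log2 peak number ran from 0.063 to 1.15, that of the intergenic share from -7.04 to -2.64, that of the tandem repeat share from -6.28 to -2.21 and that of pyrimidine content from 0.848 to 3.20. Requiring all 3 TKO ESC libraries left 187 shared and 48 TKO only regions (5' UTR share of the latter 0%), and TKO ESC peaks above their list's median fold enrichment left 239 and 409. Leaving out single libraries gave 211 to 897 shared, 789 to 2915 Tet2deltaRBD-KI only and 76 to 1497 TKO only regions. These settings also change the presence rule, to the 1 remaining Tet2deltaRBD-KI library or to both remaining TKO ESC libraries, so the moves cannot be put down to the list left out alone.

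Counting summits with any exon overlap as exonic put the intronic share of shared, Tet2deltaRBD-KI only and TKO only regions at 51.7%, 41.6% and 40.6%, while under the summit rule it ran, over single left-out libraries, from 48.5% to 65.1%, from 45.7% to 68.7% and from 56.2% to 67.2%. Among regions of at least 55% GC the 5' UTR share was 19.7%, 27.3% and 5.41%, while over regions of any GC content it ran, without single libraries, from 1.45% to 4.76%, from 7.68% to 19.4% and from 0% to 1.32%. The share near a start ran, without single libraries, from 4.57% to 12.2% for shared, from 20.7% to 50.5% for Tet2deltaRBD-KI only and from 2.90% to 9.21% for TKO only regions. The share of intronic summits near an exon ran from 15.1% to 24% for shared and from 14.7% to 27.4% for Tet2deltaRBD-KI only regions, and the share in the first intron from 44.9% to 58.5% for Tet2deltaRBD-KI only and from 20.7% to 29.4% for TKO only regions. The median GC of TKO only regions ran from 39.5% to 47%. WT ESC presence of Tet2deltaRBD-KI only regions was 43.7% with a peak in any WT ESC library, and 8.52% to 22.9% without single libraries. Tet2-KI presence of TKO only regions was 64.4% with any library, 22.6% with an overlap of 100 bp, and 20.3% to 35% without single libraries. The cause of these moves was not tested beyond the change itself.

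The sources used here name no culture or day shared by same-numbered TKO ESC and Tet2deltaRBD-KI libraries, and only the TKO ESC descriptions begin with a number (1608 or 1703), so the replicate numbers were treated as names. A fit with the replicate block (replicates 1 and 2) gave differences of 0.94 for log2 peak number, -0.27 for the intronic, -3.57 for the intergenic and -3.45 for the tandem repeat share, 2.6 for pyrimidine content, 7.05 for the 5' UTR share and 8.91 for GC content, and changed no direction. The 5' UTR and GC tests with their alternatives, and the start, exon, intron and motif shares without single libraries, were chosen after seeing the data. Depth is unknown, so a missing peak could not be separated from low coverage.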
